A study of Homo sapiens with 8 samples.

Results

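RAD51B was described here as 1 of 18 annotated genes that held transcription start sites listed for senescent cells and others listed for proliferating cells. Its members were chosen from the deposited lists of capped nascent RNA start sites. Each list is named for 1 state and not the other, so it follows from the lists that their sites did not coincide. A site was taken when its midpoint lay in the annotated span of RAD51B or within 1 kb upstream of it. The rule gave 13 sites of the 1249 in the lists, of which 9 were among 849 sites named for senescent and not proliferating cells (senescent-only) and 4 among 400 named for proliferating and not senescent cells (proliferating-only). These counts follow from the rule and the lists and are a description, with no test.

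The cells were IMR90, a human lung fibroblast line, grown at low oxygen and either proliferating or senescent after serial passage to replicative exhaustion. PRO-cap, which lets engaged RNA polymerases extend their transcripts with biotin-labelled bases and then selects capped 5′ ends, was run on 3 proliferating samples (population doubling 23 for replicate 1, 26 for replicates A and B) and 3 senescent samples (population doubling 76 for replicate 1, 67 for replicates A and B). PRO-seq, which maps the polymerases themselves, was run on 1 sample of each state (population doublings 20 and 76) and was not analysed here. The lists give 1 value per site and none per library, so the spread between cultures is unknown for every value, and intervals cover counting error only. The sources used here do not say which libraries entered the lists. The fibroblast identity of the cells could not be read from lists of state-specific sites. Of 10 fibroblast markers PDGFRA held 1 senescent-only site, and of the 14 endothelial, epithelial and immune markers with a match 0 held a site. Any site was held by 3.05% of all coding genes, so counts over so few markers do not bear on cell identity.

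RAD51B joins RAD51C, RAD51D and XRCC2 in a protein complex that acts in homologous recombination, the repair of broken DNA and of stalled replication forks from an intact copy. The gene is very long and is a recurrent site of chromosomal rearrangement in benign mesenchymal tumours. A capped start inside an intron can belong to an alternative promoter or to a transcribed enhancer, where polymerases often start in both directions. The lists do not distinguish these.

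RAD51B (ENSG00000182185.19_11) lies on the + strand of chromosome 14 in hg19, from 68286496 to 69196935. This span of 910.4 kb makes it the 95th longest of 20176 protein-coding genes in GENCODE 44. The reference transcript of the MANE Select set, RAD51B-204, has 11 exons and ends at 68944810, after 658.3 kb. Of the 24 annotated transcripts, 13 run past that end, and the longest, RAD51B-211, has 12 exons and reaches the end of the gene 252.1 kb further on. The sites are called S1 to S9 and P1 to P4 here, in their order along the gene, S for senescent-only and P for proliferating-only.

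The sequences that carry the comparison are those around the close pairs S6 with S7 and P1 with P2, which include the site with the most reads of each state. They are shown as the + strand of the GRCh37 assembly, 5′ to 3′, from 30 bases before the left centre to 30 bases after the right one. In the senescent-only interval, chr14:69086965-69087203, the capitals mark the AP-1 motif TGACTCA on either strand, which FOS and JUN family factors bind. In the proliferating-only interval, chr14:69104226-69104365, which held no such match, they mark the CCAAT box on its opposite strand. S6 and S7 each held a CCAAT box too, at 69086960 to 69086964 and 69087201 to 69087205. The ends of the interval shown leave out the first and cut the second, so the marks set no contrast of motifs between the states. Other motifs, given below, are not marked.
S6 to S7: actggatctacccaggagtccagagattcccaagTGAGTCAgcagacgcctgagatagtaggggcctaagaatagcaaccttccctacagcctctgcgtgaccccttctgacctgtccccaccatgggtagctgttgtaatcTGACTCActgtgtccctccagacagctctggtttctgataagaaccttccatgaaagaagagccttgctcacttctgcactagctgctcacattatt
P1 to P2: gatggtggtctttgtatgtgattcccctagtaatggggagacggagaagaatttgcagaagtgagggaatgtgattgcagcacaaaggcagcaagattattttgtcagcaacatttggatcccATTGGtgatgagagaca

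The 13 sites fell into 2 dense clusters of unlike state and 5 scattered sites. All lay in introns, at no annotated RAD51B start. The share of all listed sites that lie in introns is not given here, so this is no trait particular to RAD51B. A start used alike in both states would not be in the lists. The nearest site to the annotated 5′ end of the gene, S1, was 388.6 kb downstream of it. Of sites inside a single coding gene, 92.3% of 743 senescent-only and 89.9% of 347 proliferating-only ones lay past its midpoint. Few listed sites thus lie in the first part of any host gene, so this distance cannot be taken as particular to RAD51B. S1 (68675017 to 68675166), S2 (68698714 to 68698863) and S3 (68715895 to 68716044) lay in intron 7 of RAD51B-204, which is 404.7 kb long, at 42.7%, 45.3% and 47.2% of the gene span. S4 (68871633 to 68871782) lay in intron 8, 6.52 kb from the nearest annotated RAD51B start, that of RAD51B-219, and 6.43 kb before exon 9. The other 9 sites came after the end of the reference transcript.

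The senescent-only cluster S5 to S8 filled 2056 bases between 69086587 and 69088642, from 141.9 to 143.8 kb past the end of RAD51B-204. The proliferating-only cluster P1 to P4 filled 1352 bases between 69104182 and 69105533, from 159.4 to 160.6 kb past that end. Both clusters lay in intron 10 of RAD51B-211, which is 182.5 kb long, before its exon 11. S9 (69129266 to 69129415) lay beyond that exon, in intron 11. Only 4 annotated RAD51B transcripts ran over the positions of these 9 sites, and their exons covered 0 of the sites. The nearest annotated start of any gene was that of an antisense long noncoding RNA for each of the 9, at 6.63 kb (S8, ENSG00000259038) to 22.9 kb (S9, ENSG00000258623).

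**Figure D1:**
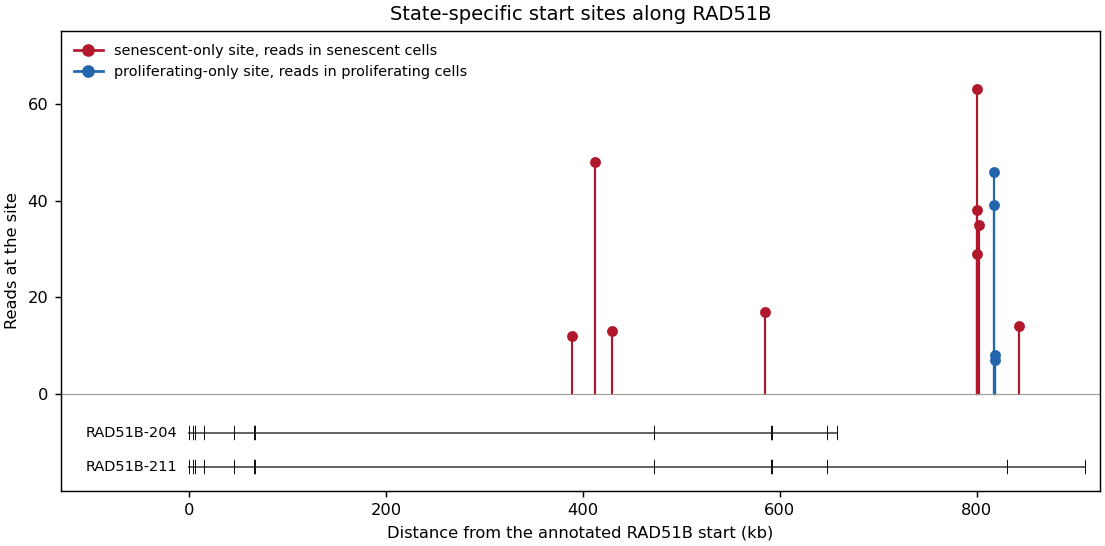
Distance from the annotated RAD51B start (kb, x axis) against reads in the state of the list (y axis) for the 9 senescent-only (red) and 4 proliferating-only sites (blue), over the exons of RAD51B-204 and RAD51B-211. The 4 proliferating-only sites stand between S8 and S9, and 9 of the 13 sites stand past the last exon of RAD51B-204.

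Sites beyond a reference transcript were counted in the other host genes as well. Of the sites inside a single coding gene with a MANE Select transcript, 6 of 731 senescent-only (0.821%) and 4 of 336 proliferating-only sites (1.19%) lay past its 3′ end. RAD51B held 5 of those 6 and all 4 of the latter. Outside RAD51B the count was 1 of 1054 sites (0.0949%), in YAE1, a gene named after its value was seen. Such a site can occur only where the annotated span runs on past the reference end, as it does for 252.1 kb in RAD51B. How much such span the other host genes have is not given here, so the shares are not compared on equal terms. The rule asked only that a site lie in the annotated span, so it did not fix on which side of the reference end a site lay. Sites of a cluster share their surroundings, and the 9 sites form 3 regions when those of a list within 10 kb are joined, so no test was run over them.

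The order of the sites along the gene was 8 senescent-only sites, then the 4 proliferating-only sites, then S9. From S8 to P1 the centres were 15.7 kb apart, and from P4 to S9 23.9 kb. No senescent-only site (0) lay between the first and the last proliferating-only one. S1 to S4 were 232.5 to 429.2 kb from the nearest proliferating-only site. Joining sites of a list within 500 bases left 7 senescent-only and 2 proliferating-only regions, and joining within 10 kb left 6 and 1.

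The depth behind each site was recovered from the deposited folds, which are the authors' ratio of one state over the other. Each fold equalled whole reads of its own state times a fixed step plus 1, over the like sum for the other state. S6 had 63 reads in senescent cells (exact Poisson 95% interval 48.4 to 80.6) and 0 in proliferating cells. S7 had 38 (26.9 to 52.2) against 0. S5 had 29 (19.4 to 41.6) against 0. The fourth site of the cluster, S8, had 35 (24.4 to 48.7) against 1 read in proliferating cells. S6 was thus the site with the most reads in the gene, and its interval overlapped those of S7 and S8 and lay above that of S5.

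The scattered senescent-only sites had fewer reads, with 1 exception. S2 had 48 reads in senescent cells (35.4 to 63.6) against 1 in proliferating cells. S4 had 17 (9.90 to 27.2) against 0, S9 had 14 (7.65 to 23.5) against 0, S3 had 13 (6.92 to 22.2) against 0 and S1 had 12 (6.20 to 21.0) against 0. The intervals of S1, S3, S4 and S9 overlapped one another and lay below those of S2 and S6.

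Within the proliferating-only cluster the sites formed a strong and a weak pair. P2 had 46 reads in proliferating cells (33.7 to 61.4) against 3 in senescent cells, and P1 had 39 (27.7 to 53.3) against 0. P4 had 8 (3.45 to 15.8) against 0 and P3 had 7 (2.81 to 14.4) against 0. The intervals of P3 and P4 lay wholly below those of P1 and P2. P1 and P2 overlap by 71 bases, so reads can be counted in both, and the counts were not added. P2 is also the only RAD51B site with more than 1 read of the other state.

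**Figure D2:**
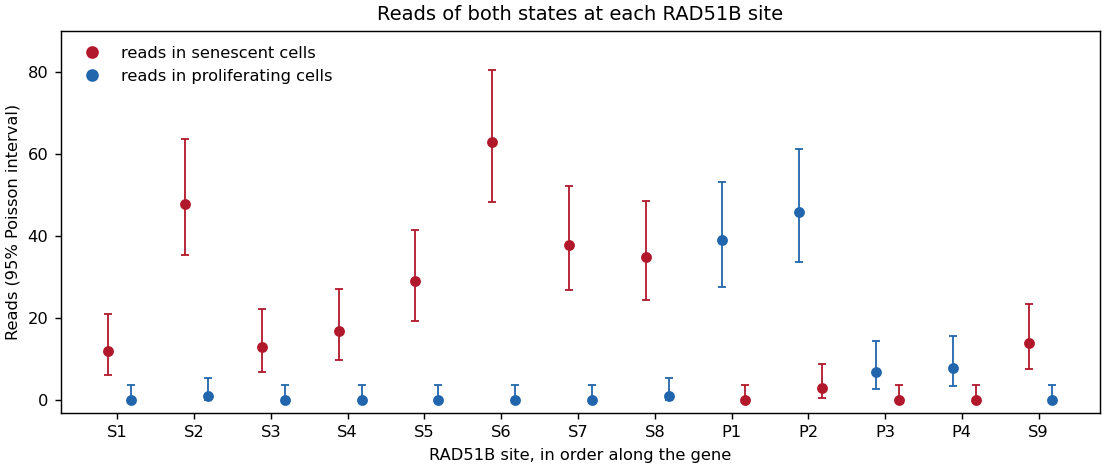
Reads in senescent (red) and proliferating cells (blue) with exact Poisson 95% intervals (y axis) at each RAD51B site, in order along the gene (x axis). The state of the list has 7 to 63 reads at every site, the other state 0 to 3.

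Set against their lists, the RAD51B sites were of middling depth. The median was 29 reads for the 9 senescent-only sites and 32 for all 849, and 23.5 for the 4 proliferating-only sites and 24 for all 400. Fewer reads than at S6 were found at 70.3% of the senescent-only list, and fewer than at P2 at 73.5% of the proliferating-only list. P3 and P4 stood near the bottom, above 4.5% and 6.0% of that list. No read of the other state was found at 7 of the 9 (77.8%) and 3 of the 4 RAD51B sites (75%), where the whole lists had 55.4% and 73%.

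The authors' fold of senescent over proliferating cells, or the reverse for P sites, was 2068 at S6, 1536 at P1, 1248 at S7 and 953 at S5. It was 277 at P3 and 316 at P4. At sites with 0 reads of the other state this fold is set by the pseudocount of 1. A ratio that does not rest on the pseudocount was therefore taken from the reads, scaled by the steps, as the lower end of its exact binomial 95% interval, which covers the counting error of both states. This lower end was 13.8-fold in favour of senescent cells at S6, 8.18-fold at S7 and 6.14-fold at S5. At P1 it was 12.1-fold in favour of proliferating cells. The sites were listed for such differences, and the interval does not account for that choice. It therefore describes the counts and sets no minimum difference between the states. The lower ends for S1, S3, S4 and S9 were 2.32 to 3.44-fold, and those for P3 and P4 1.73 and 2.05-fold. With the own reads taken as counted, over a floor of 3 reads for a count of 0, the ratios were 17.5 at S6, 15.6 at P1 and 2.80 at P3.

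The remaining 3 sites had reads of both states, so their ratio has an upper end as well. The level in senescent cells was 40.01 times that in proliferating cells at S2 (exact binomial 95% interval 6.85 to 1613) and 29.2 times at S8 (4.90 to 1185). At P2 the level in proliferating cells was 18.4 times that in senescent cells (5.91 to 92.5). Every deposited fold was above 10, the lowest of the lists being 10.04, and the authors' folds of these sites, 39.0, 28.5 and 18.2, were the lowest of the gene. Because the lists are named for such differences, these folds describe the members and test nothing.

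The letters at the centre of a site are independent of how the RAD51B sites were chosen. RNA polymerase II prefers to start at a purine that follows a pyrimidine. At base 75 of the 150-base sites such a step was present, on either strand, at 86.2% of the sites in the senescent list (117 of 849 lacked it) and at 86% in the other list. At places 1 base away, which share one of the letter pairs read at the centre, it was 53.25% to 57.2%, and at places 10 bases away 40.75% to 45.2%. The central base was therefore read as the start, and the strand of the step as its direction by letters. Since many other places also match, the direction of any single site is uncertain. The strand column of the lists is + throughout and could not be used for this.

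In RAD51B the step was present at 11 of the 13 sites. S3 and S5 lacked it. It lay on the + strand, which is the sense of the gene, at S2, S7, S8 and P2, and on the opposite strand at S1, S4, S6, S9, P1, P3 and P4. Over both lists without RAD51B, 468 steps were sense and 456 antisense (50.6% sense). The cores of the cluster sites show the step. Each line gives 60 bases of the + strand with the 2 bases of the step in capitals, or the central base alone for S5. S6, P1, P3 and P4 are read on the opposite strand, where the capitals CA become TG, TA stays TA and TG becomes CA.
S5: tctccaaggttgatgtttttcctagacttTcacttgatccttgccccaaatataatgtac
S6: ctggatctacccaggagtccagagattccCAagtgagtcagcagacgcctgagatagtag
S7: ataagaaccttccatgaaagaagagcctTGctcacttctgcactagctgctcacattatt
S8: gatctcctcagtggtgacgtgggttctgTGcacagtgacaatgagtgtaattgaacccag
P1: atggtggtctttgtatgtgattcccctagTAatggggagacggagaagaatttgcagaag
P2: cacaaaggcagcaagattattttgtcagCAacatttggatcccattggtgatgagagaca
P3: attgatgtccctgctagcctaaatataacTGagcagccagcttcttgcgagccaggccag
P4: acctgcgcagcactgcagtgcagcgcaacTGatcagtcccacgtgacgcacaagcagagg

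By these letters each cluster held a pair of starts that pointed away from each other. In S6 and S7 the steps lay 178 bases apart, the left on the opposite strand and the right on the + strand. In P1 and P2 they lay 79 bases apart with the same arrangement. Among all neighbouring sites of a list whose centres were at most 300 bases apart, 108 of 157 senescent-only pairs (68.8%) and 42 of 88 proliferating-only pairs (47.7%) had steps pointing apart, with a median distance of 152.5 bases over both lists. Steps that pointed together made up 7.64% and 27.3%. The arrangement in RAD51B is thus the most common one of the lists.

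**Figure D3:**
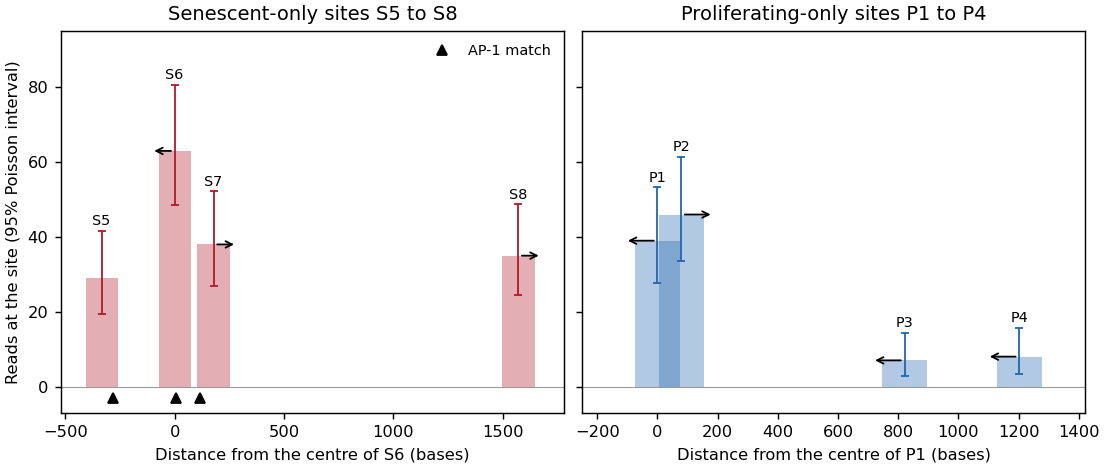
Reads at the cluster sites with exact Poisson 95% intervals (y axis) against the distance from the centre of S6 or P1 in bases (x axis). Boxes span the 150 bases of a site, arrows give the strand of the central step (right is +), and triangles mark AP-1 matches, of which the senescent-only cluster holds 3 and the proliferating-only cluster 0.

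Motifs were searched within the 200 bases centred on a site. The AP-1 motif TGACTCA, searched on both strands, was found at S5, S6 and S7. In S6 it began 4 bases from the centre, at 69086999, and on the strand of the step it lies just upstream of the start. In S7 it began 66 bases before the centre, at 69087107, again upstream of the step, and in S5 50 bases after the centre, at 69086711. None of the other 6 senescent-only and 4 proliferating-only sites held it (0 of each). The motif was present at 18.4% of all senescent-only and 10% of all proliferating-only sites. With so few sites that share their surroundings, the counts of 3 of 9 and 0 of 4 were not tested against these shares.

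The TEAD motif GGAATG had another spread. It was found at P1, P2 and P4 and at S1 (18.75% of the proliferating-only and 17.8% of the senescent-only list). P1 and P2 share 1 copy, at 69104291 to 69104296, between their centres. They likewise share 1 CCAAT box, searched as CCAAT, at 69104349 to 69104353, and S4, S6 and S7 each held one of their own (23.9% of senescent-only and 19.25% of proliferating-only sites in all). P4 held the E-box CACGTG (2.75% of its list). The RUNX motif TGTGGT was found at P2 and S9 (14.75% and 19.0% of their lists). The TATA box, searched as TATAAA or TATATA, was found at 0 of the 13 sites (14.5% of both lists), as were the GC box GGGCGG (6.57%), the ETS motif CCGGAAG (1.44%) and the cyclic AMP response element TGACGTCA (0.641%). A match or its absence describes these letters and no binding.

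Base composition was read in the same windows. GC content was 47.5%, 47.5%, 48.5% and 53.5% at S5 to S8, and 47%, 44%, 46.5% and 59.5% at P1 to P4. The medians of all sites were 45.5% and 47.25%. S2 had the lowest GC content of the gene, 35%, and P4 the highest. The CpG observed-to-expected ratio was 0 at S1, S7 and S9 and reached 0.357 at P2, with list medians of 0.186 and 0.247. The annotated start of RAD51B itself, read in a window of the same length, had 54% GC, 10 CpGs and a ratio of 0.701, above each of the 13 sites in its ratio.

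**Figure D4:**
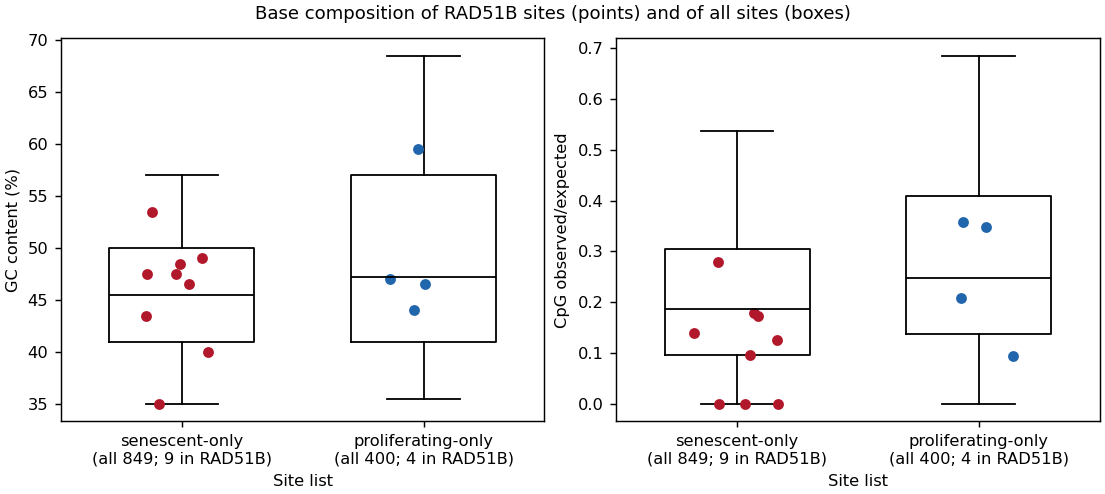
GC content in percent (left) and CpG observed-to-expected ratio (right) of the RAD51B sites (points) over all sites of the 2 lists (x axis); boxes show the quartiles and median, whiskers the 5th to the 95th percentile. All 13 sites have a CpG ratio of 0.357 or less.

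Among host genes, RAD51B held the most sites when both lists were counted, 13, ahead of GTDC1, a glycosyltransferase-like gene, and PTPRM, a receptor phosphatase, with 12 each. Of the coding genes, 4 had more senescent-only sites and 7 more proliferating-only sites than RAD51B. Its density was 14.3 sites per Mb, as in PTPRM (14.3), and below the 42.3 of ANTXR1 and the 30.4 of GTDC1. Of 20 coding genes of like length (888.4 to 947.0 kb), 6 held any site, with 8 senescent-only and 0 proliferating-only sites in all. They were PCDH9, a protocadherin, and TRPM3, a cation channel, with 2 each, and HDAC9, a histone deacetylase, PLCB1, a phospholipase, NCKAP5 and ENSG00000282278 with 1 each. The highest density among them was 2.18 sites per Mb. Just below this range of length, PTPRM spans 840.1 kb at the density of RAD51B, so the low values hold for these 20 genes only. Whether the 20 genes are transcribed in these cells cannot be read from the lists.

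Sites of both lists were held by 18 annotated genes or 0.0279% of 64486, of which 16 were protein-coding (0.0793% of 20176). RAD51B was the 1 gene of the 18 with at least 3 sites of each list. Joined within 10 kb, these sites formed 6 senescent-only regions and 1 proliferating-only region, so by regions RAD51B did not reach 3 of each list. By the distance between the pairs log2(senescent-only sites + 1) and log2(proliferating-only sites + 1), the genes most like it were CAMTA1, a calmodulin-binding transcription factor, with 5 and 1 sites (distance 1.51), the noncoding LINC01588 and the ubiquitin ligase gene MARCHF1 with 4 and 1 each (1.66), NXN, a thioredoxin-like gene, with 2 and 4 (1.74), and MAP3K7CL with 2 and 1 (2.18). This likeness rests on counts in 2 lists.

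The distance between sites of opposite kind was measured in the same genes. The nearest pair of opposite kind was 15.7 kb apart in RAD51B, a median of 99.3 kb apart over the 18 genes and 9.61 kb apart in NXN, the 1 gene with a closer pair. In 16 of the 18 genes the sites of one list all lay to one side of those of the other. The exceptions were RAD51B, where senescent-only sites lay on both sides of the proliferating-only ones, and NRP2, where 1 senescent-only site lay between proliferating-only ones. In genes with 1 site of each list no other order was possible, and a pair of overlapping genes shared the same sites. The count of 16 was therefore partly fixed in advance.

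**Figure D5:**
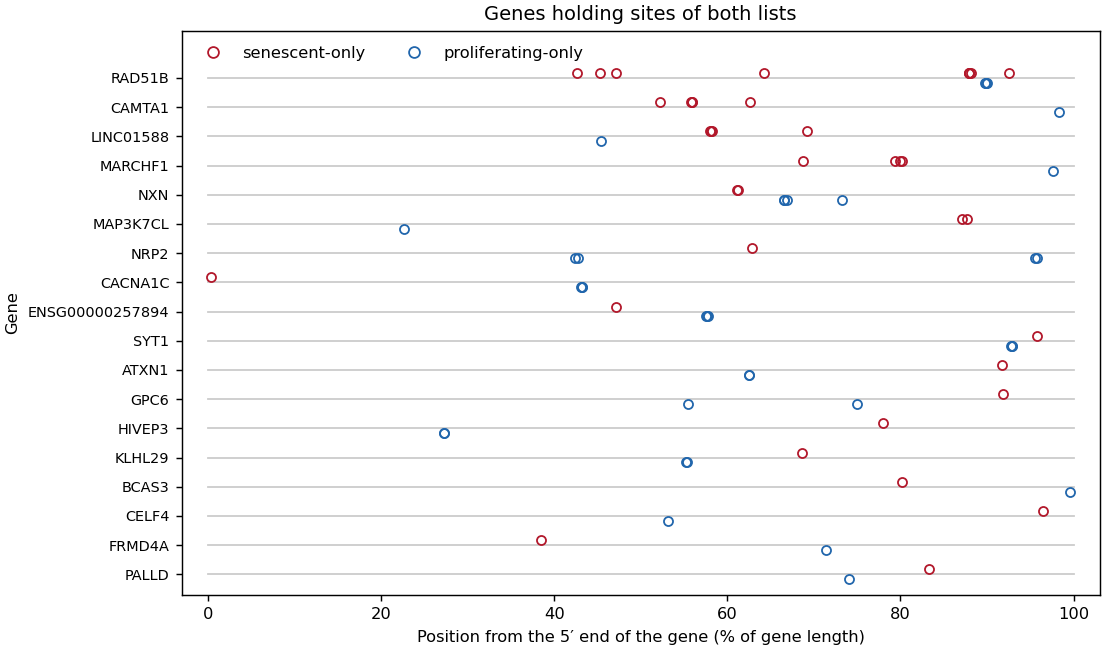
Position of each site from the 5′ end of its gene (% of gene length, x axis) in the 18 genes (y axis) that hold senescent-only (red) and proliferating-only sites (blue), ordered by likeness to RAD51B. RAD51B has 9 and 4 sites, the others 1 to 5 and 1 to 4.

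The genes next to RAD51B held no site of either list. ZFYVE26, a zinc finger protein gene 3.19 kb before it, and ZFP36L1, an RNA-binding decay factor gene 57.4 kb beyond it, held 0 sites, as did the 11 annotated genes inside it. Within 500 kb the genes with a site were ACTN1, an actin crosslinker, with 1, DCAF5 with 4 and the noncoding ENSG00000289180 with 2, all senescent-only and downstream. ENSG00000289180 lies inside DCAF5, so its 2 sites are among those 4. At the edge of the rule, the last site inside was S9, 67.2 kb before exon 12 of RAD51B-211, and the nearest one outside lay 154.3 kb beyond the gene. The nearest one upstream lay 6283 kb before it. Chromosome 14 had 40 senescent-only sites, 9 of them in RAD51B, and 18 proliferating-only sites, 4 of them in RAD51B.

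Genes of its pathway were counted in the same way. Of 49 matched genes of homologous recombination, 1 held a senescent-only and 1 a proliferating-only site, and both were RAD51B, where 2.04% and 1.09% of coding genes held such a site. Its partner genes RAD51C, RAD51D and XRCC2, and the related XRCC3, held 0 of either. None of 31 genes of end joining and damage signalling did (0 of 31). RAD51B is much longer than these genes. The others of the recombination list reach 228.3 kb, in SEM1, and those of the second list 276.3 kb, in XRCC4, so they offered less room for intronic sites. The lists name state-specific sites only, so they say nothing of how strongly these genes were transcribed.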

How the data were processed

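PRO-cap site lists of proliferating and senescent IMR90 cells were used. Of 4 deposited files 2 were distinct. The authors deposited 1 fold per site, a linear ratio of the states, and its direction was taken from the list's name. The submitters' processing notes name HOMER, bedtools 2.27.1-65, cutadapt 2.10, SAMtools 1.1 and BWA 0.7.10 without saying what each did. Site calling, pooling of replicates and library depth are not stated in these sources. The lists are named for hg19 and were read with GRCh37 and GENCODE 44 lifted to it.

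Folds were decoded into whole reads (step of 32.8 per senescent and 39.4 per proliferating read, pseudocount 1). All 1249 were matched within 1e-06 of a read, a procedure tested on simulated data. Levels are reads times these steps. Motifs and composition were read in 200 bases. No test was run on the members, because the rule used the lists and the lists hold no value per sample. Named genes are RAD51B, repair genes with a site, site-holding genes within 500 kb and the flanking coding genes, the 5 genes of both lists nearest in counts, and genes of like length with a site. Genes needed for one comparison only (GTDC1, PTPRM, ANTXR1, YAE1, NRP2) were named after their values were seen. The members and gene lists were chosen with earlier results of these data known. Python 3.11.15, pandas 2.3.3, scipy 1.17.1 and pysam 0.24.0 were used. Alternatives changed the gene span, the sites kept, the joining distance and the window.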

Additional observations from a re-analysis of the deposited data

How the results depend on the processing

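Over 16 results, 26 of 37 values under an alternative setting stayed within 1.5 times the reported count or within the spread over sites. The alternatives on the MANE Select span, the sites past its end, the distance between states and the central base were chosen after the data were examined. With the span of RAD51B-204 in place of all transcripts, 4 senescent-only and 0 proliferating-only sites were left, and the median positions moved from 87.9% and 89.9% to 121.5% and 124.3% of the span. In the 50% of each list with the highest fold, 1 proliferating-only site, P1, was left and 5 sites lay past the end of RAD51B-204. In that set, 9 genes held sites of both lists, and also 9 when sites with any read of the opposite state were left out. Joined within 1 kb or 10 kb, the proliferating-only sites formed 1 region. With the centre taken 1 base to the left 4 sites had a pyrimidine-purine step, and 1 base to the right 9 sites, against 11 at the centre. These settings keep fewer sites, a shorter span or other bases by their construction. No paired analysis was possible because each list carries a single value per site and none per library. Leaving out a replicate was not possible either. P3 and P4 rest on 7 and 8 reads, which limits their ratios most.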

Other observations

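The distance along the gene can be read against either span. By the full annotated span S1, S2 and S3 lay before the midpoint of RAD51B, while sites inside a single coding gene lay past the midpoint of theirs in 92.3% of 743 cases in the senescent list and 89.9% of 347 in the other. By the span of RAD51B-204 all 13 sites lay past the midpoint, S1 at 59.0%, and the shares of the lists were 88.6% and 85.7%. A position past the midpoint is therefore no trait particular to RAD51B. A transcript that starts at S1, S2 or S3 and runs along the gene would have 294 of the 1050 coding bases of RAD51B-204 ahead of it, and from S4 197. From the other 9 sites it would have 0. Of S1 to S4, only S2 had the central step in the sense of the gene. S1 and S4 had it on the opposite strand and S3 lacked it.

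Distances to the next exon of RAD51B-211 differed between the clusters. Exon 11 began 28.9 to 30.8 kb after S5 to S8 and 12.04 to 13.2 kb after P1 to P4. S9 lay 11.8 kb after that exon and 67.2 kb before exon 12.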
